A study of Oryza sativa with 6 samples.

Results

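Laccases are multicopper oxidases that plant cells secrete into the wall, where they oxidise monolignols, the alcohol precursors of lignin, to radicals that couple into the polymer. Class III peroxidases carry out the same kind of oxidation with hydrogen peroxide, whereas laccases use molecular oxygen. In grass stems lignin stiffens the walls of xylem vessels and of the fibres around the vascular bundles and under the epidermis, and in Arabidopsis the loss of several laccases together strongly lowers lignin. Laccase transcripts of plants, rice among them, are known targets of the microRNA miR397, which these arrays did not measure.

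The laccase genes examined were those of a list of 10 rice LAC symbols that could be found, as a symbol or a synonym, among genes read by a probe set for that gene alone. Of the 10, 4 were matched: LAC3 (LOC4327522), LAC4 (LOC4327500) and LAC7 (LOC4324802) on chromosome 1 and LAC10 (LOC4332400) on chromosome 3, each read by 1 probe set. LAC2, LAC5, LAC6, LAC12, LAC13 and LAC17 were not matched in the annotation used here and are not analysed here. The 4 genes stand among 17905 genes with a single-gene probe set. All laccases in the gene table were numbered in their order along the chromosomes, so the numbers say nothing of which Arabidopsis laccase a rice gene resembles.

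Transcripts were measured in the young uppermost internode, the stem segment under the panicle, of the wild type rice cultivar Nipponbare and of coi1-13, which the labels call a mutant. The labels name no treatment, age or allele and do not say what the mutation does. COI1 is the F-box receptor of the hormone jasmonate. Each genotype had 3 biological replicates, and each replicate went to its own one-colour Affymetrix rice array; whether they came from separate plants is not stated, so p-values measure the spread between these samples.

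The values were log2 signals scaled to the same level on every array. The share of probe sets brighter than the highest of 33 negative controls was 52.1% to 56.4%, and that control had a log2 signal of 4.93 to 5.56. Of the arrays, coi1-13 replicate 3 had the highest array median (5.75, against 5.55 to 5.64 on the other arrays). The 3 genes of the COI family, COI1A, COI1B and COI2, differed by -0.11, 0.00 and -0.09 on the log2 scale and did not pass the test (adjusted p = 0.0582, 0.983 and 0.343, limma), so their levels do not check the genotype labels. Stem markers were present, with the meristem gene OSH1 at a mean log2 signal of 12.12 in wild type, but so were anther and panicle markers: the anther genes RTS and C6 stood at 14.40 and 13.85 in wild type. Across the series 35.9% of 34355 tested probe sets passed an adjusted p of 0.05, 16.5% higher and 19.4% lower in coi1-13, and the groups did not overlap in 47.5%. That split depended on scaling: 5679 probe sets were called higher and 6668 lower as deposited, against 3721 and 9522 with each array centred on its median.

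All 4 laccases passed that test, and they went in both directions. LAC7 and LAC3 were higher in coi1-13, by 1.87-fold and 1.28-fold, and LAC4 and LAC10 were lower, by 2.23-fold and 1.16-fold. LAC4 was the one laccase with a change of at least 2-fold, a size that 2.00% of tested probe sets reached as called falls. The median log2 difference of the 4 was 0.07, beside -0.01 over all tested probe sets. With 4 members against a background in which more than 1 probe set in 3 was called, the count of 4 says little about laccases as a family, so the genes are described singly.

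LAC4 fell. Its log2 signal was 11.05, 10.98 and 10.76 on the wild type arrays and 9.94, 9.82 and 9.54 on the coi1-13 arrays, so the lowest wild type array lay well above the highest coi1-13 array. The means were 10.93 ± 0.15 and 9.77 ± 0.21 (SD, n = 3 each), a log2 difference of -1.16 with a 95% interval from -1.39 to -0.93 (limma, adjusted p = 1.01e-05). Of all tested probe sets, 2.11% fell by as much or more. The call was kept under each of 13 alternatives tried, with log2 differences from -1.28 to -1.04.

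LAC7 rose. It read 11.84, 11.74 and 11.84 in wild type and 12.67, 12.75 and 12.70 in coi1-13, and all coi1-13 arrays lay above all wild type arrays. The means of 11.81 ± 0.06 and 12.71 ± 0.04 (SD, n = 3 each) differed by 0.90 on the log2 scale, with a 95% interval from 0.81 to 0.99 (limma, adjusted p = 7.28e-08), and 6.24% of tested probe sets rose by as much. Its probe set was among the brightest, with 94.6% of tested probe sets at a lower mean signal. The gene table lists 2 transcripts for LAC7, as for LAC4, and 1 each for LAC3 and LAC10. With 1 probe set a gene, a change in the level of 1 transcript cannot be told from a change in the whole gene.

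**Figure D1:**
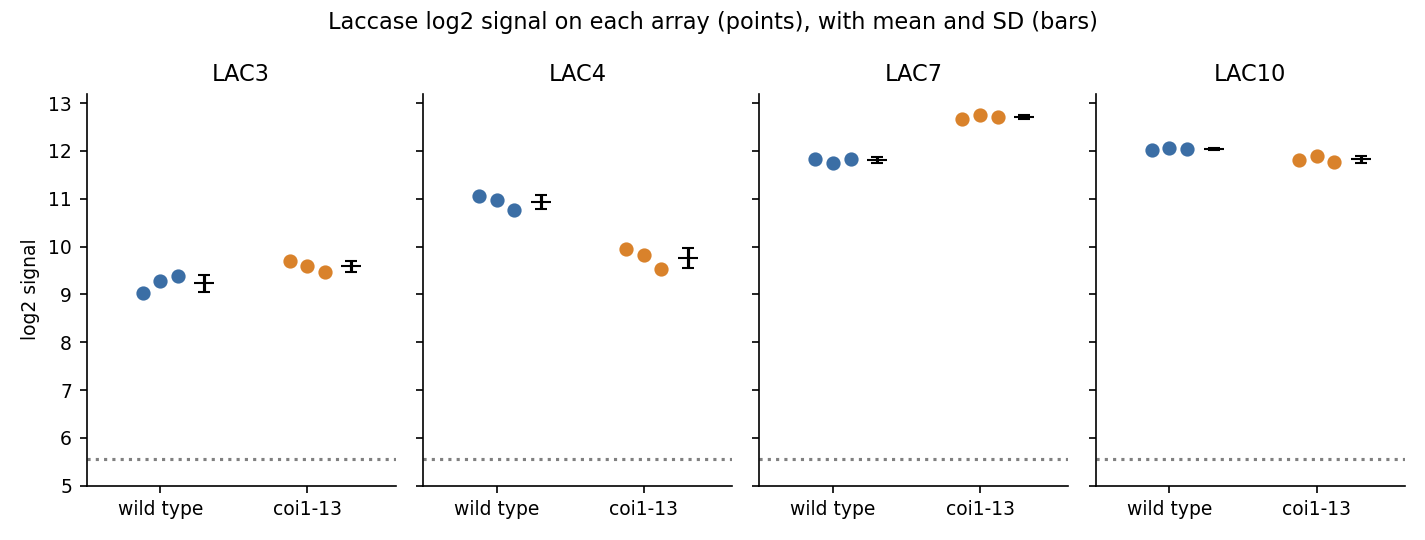
Log2 signal (vertical axis) of LAC3, LAC4, LAC7 and LAC10 on the 3 wild type (blue) and 3 coi1-13 (orange) arrays, with the mean and SD of each group as black bars and, as a dotted line, the highest negative control of any array (5.56). The groups do not overlap for any of the 4 genes, as in 47.5% of all tested probe sets, and the gap is widest for LAC4 and LAC7.

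LAC10 fell slightly. It read 12.02, 12.05 and 12.05 in wild type and 11.81, 11.90 and 11.76 in coi1-13, without overlap. The difference of -0.22 on the log2 scale, from 12.04 ± 0.02 to 11.82 ± 0.07 (SD, n = 3 each), had a 95% interval from -0.31 to -0.12 (limma, adjusted p = 0.00264). A fall of this size or larger was common, being found in 27.0% of tested probe sets.

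LAC3, the dimmest of the 4 probe sets, had the least secure call. It read 9.04, 9.28 and 9.39 in wild type and 9.70, 9.59 and 9.47 in coi1-13, and the highest wild type and lowest coi1-13 arrays were close to each other. The means of 9.23 ± 0.18 and 9.59 ± 0.12 (SD, n = 3 each) differed by 0.35, with a 95% interval from 0.14 to 0.56 (limma, adjusted p = 0.0153). The call was lost when each array was centred on its median (0.23, adjusted p = 0.12), without the variance trend (adjusted p = 0.0777) and without coi1-13 replicate 1 (0.29, adjusted p = 0.0622).

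**Figure D2:**
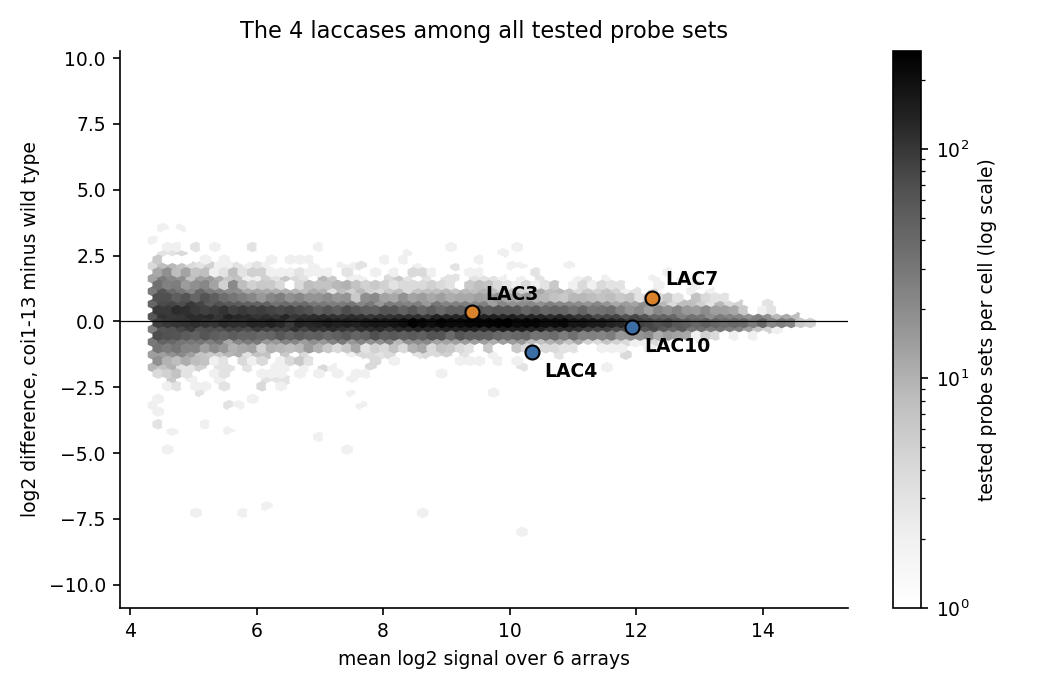
Log2 difference, coi1-13 minus wild type (vertical axis), against mean log2 signal over 6 arrays (horizontal axis) for all 34355 tested probe sets, shaded by their number on a log scale, with the laccases as coloured points (orange higher, blue lower in coi1-13). Over all signals, 2.11% of tested probe sets fell as far as LAC4 at -1.16 and 6.24% rose as far as LAC7 at 0.90. LAC3 and LAC10 differ less.

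Because a shift of a whole array moves all probe sets on it together, the laccases were also set against each other within each array. The log2 signal of LAC4 minus that of LAC7 was -0.79, -0.76 and -1.08 in wild type and -2.73, -2.93 and -3.16 in coi1-13. The ratio of these signals thus changed by -2.06 on the log2 scale, or 4.17-fold, a size that adding a constant to an array does not alter. The difference LAC4 minus LAC10 changed by -0.94, although both were lower in coi1-13, and LAC3 minus LAC7 by -0.55, although both were higher. For LAC3 minus LAC4, LAC3 minus LAC10 and LAC7 minus LAC10 the change was 1.51, 0.57 and 1.12. Where the 2 genes go in opposite directions without overlap, as in 4 of the 6 pairs, their difference cannot overlap either. The size of each change is the difference of the 2 log2 differences given above, so it adds no separate evidence. The other two pairs, LAC4 with LAC10 and LAC3 with LAC7, did not overlap either; each gave p = 0.1 in a two-sided exact permutation test (0.1 after adjustment over the 6 pairs), the smallest p that 3 arrays against 3 allow, so the test cannot pass a threshold of 0.05 here.

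**Figure D3:**
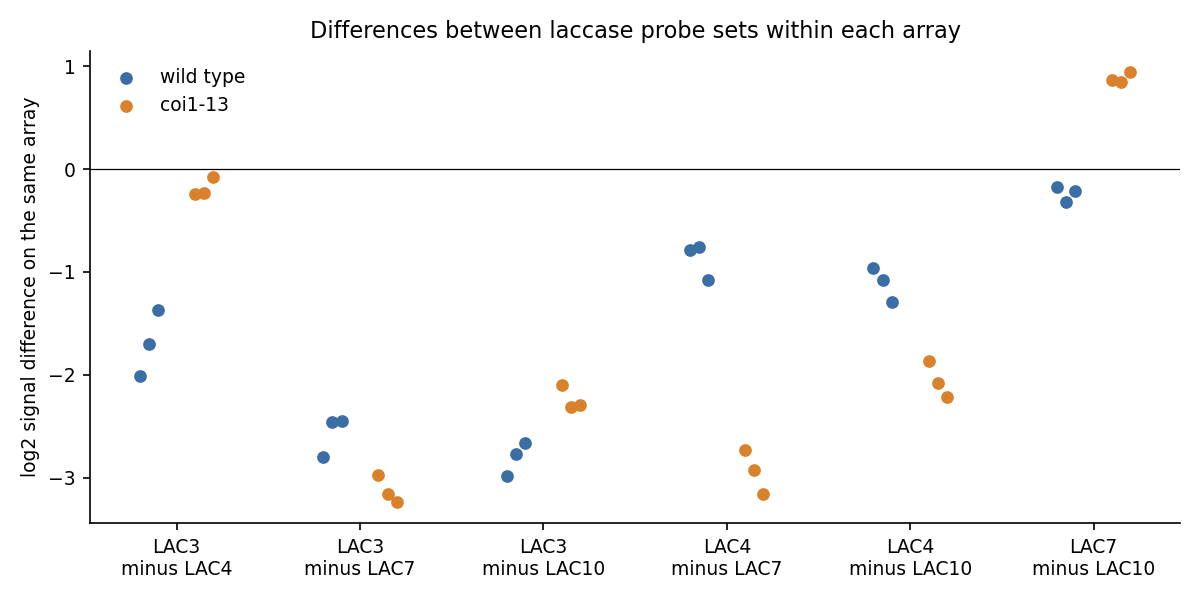
Difference in log2 signal between 2 laccase probe sets on the same array (vertical axis) for the 6 pairs (horizontal axis), with 3 wild type arrays in blue and 3 coi1-13 arrays in orange. Only the shift between blue and orange can be read, since the level of one probe set cannot be set against that of another, and the largest shift is that of LAC4 minus LAC7.

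Of 16 other laccase symbols, 8 were in the gene table and 5 of those had a single-gene probe set. LAC15, LAC19, LAC20 and LAC24 did not exceed the negative controls on any of the 6 arrays and were not tested, so their differences were not measured. LAC23 was above them on all 6 arrays and did not pass, with a log2 difference of -0.20 and a 95% interval from -0.61 to 0.21 (limma, adjusted p = 0.443). Among the laccases read here, LAC23 and the 4 listed genes were thus the ones with a measured signal in these internodes.

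The lignin synthesis genes that feed the laccases were taken as a list of symbols for the enzymes from phenylalanine ammonia-lyase to cinnamyl alcohol dehydrogenase. It matched 20 genes with 31 probe sets, of which 29 were tested: 4 rose, 11 fell and 14 did not pass, against 16.5% and 19.4% of all tested probe sets. The median log2 difference was -0.14, beside -0.01 over all tested probe sets. The count of 11 that fell became 7 without wild type replicate 1 and 4 without the variance trend.

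By step, phenylalanine ammonia-lyase, which opens the pathway, had 2 of 7 probe sets that fell and none that rose, all within 0.23 of 0 on the log2 scale. These probe sets read 2 genes, PAL and ZB8, and for each gene they disagreed. A PAL probe set fell by 0.23, while the brighter PAL probe sets, at 0.00 to 0.07, did not pass. For ZB8 a probe set fell by 0.20 and the other, at -0.22, did not pass. Of 6 for 4-coumarate:CoA ligase, which activates the acids, 4CL3 and 4CL4 fell by 0.23 and 0.14, while 4CL5 rose by 0.39; a dimmer 4CL4 probe set did not pass. HCT2 and HCT3, of the hydroxycinnamoyl transferase family, fell by 0.16 and 0.56, and HCT1 and a second HCT3 probe set did not pass. CCR1, a cinnamoyl-CoA reductase gene, did not exceed the negative controls. Steps such as cinnamate 4-hydroxylase and ferulate 5-hydroxylase were not matched and are not analysed here.

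The 3 called probe sets with the smallest p in this list all read ROMT-17, a caffeoyl-CoA methyltransferase type gene, and they disagreed. One fell by 0.76 on the log2 scale, from 11.67 to 10.92 (limma, adjusted p = 3.97e-06), and the other two rose by 0.53 and 0.46 (adjusted p = 1.53e-06 and 1.03e-05). The brightest of its 4 probe sets did not pass (0.15, adjusted p = 0.109), so no direction is established for the gene. The related ROMT-15 fell by 0.23. Among cinnamyl alcohol dehydrogenases, which make the monolignols, 1 of 7 tested probe sets rose, 3 fell and 3 did not pass. CAD1 rose by 0.27 and CAD7 fell by 0.43 (limma, adjusted p = 0.000596 and 0.00201). CAD2, also named GH2 after the gold hull and internode mutant, fell by 0.17 and CAD6 by 0.33 (limma, adjusted p = 0.00406 and 0.0265). LAC4 and LAC7 thus had larger log2 differences, at -1.16 and 0.90, than any called probe set of the synthesis list.

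**Figure D4:**
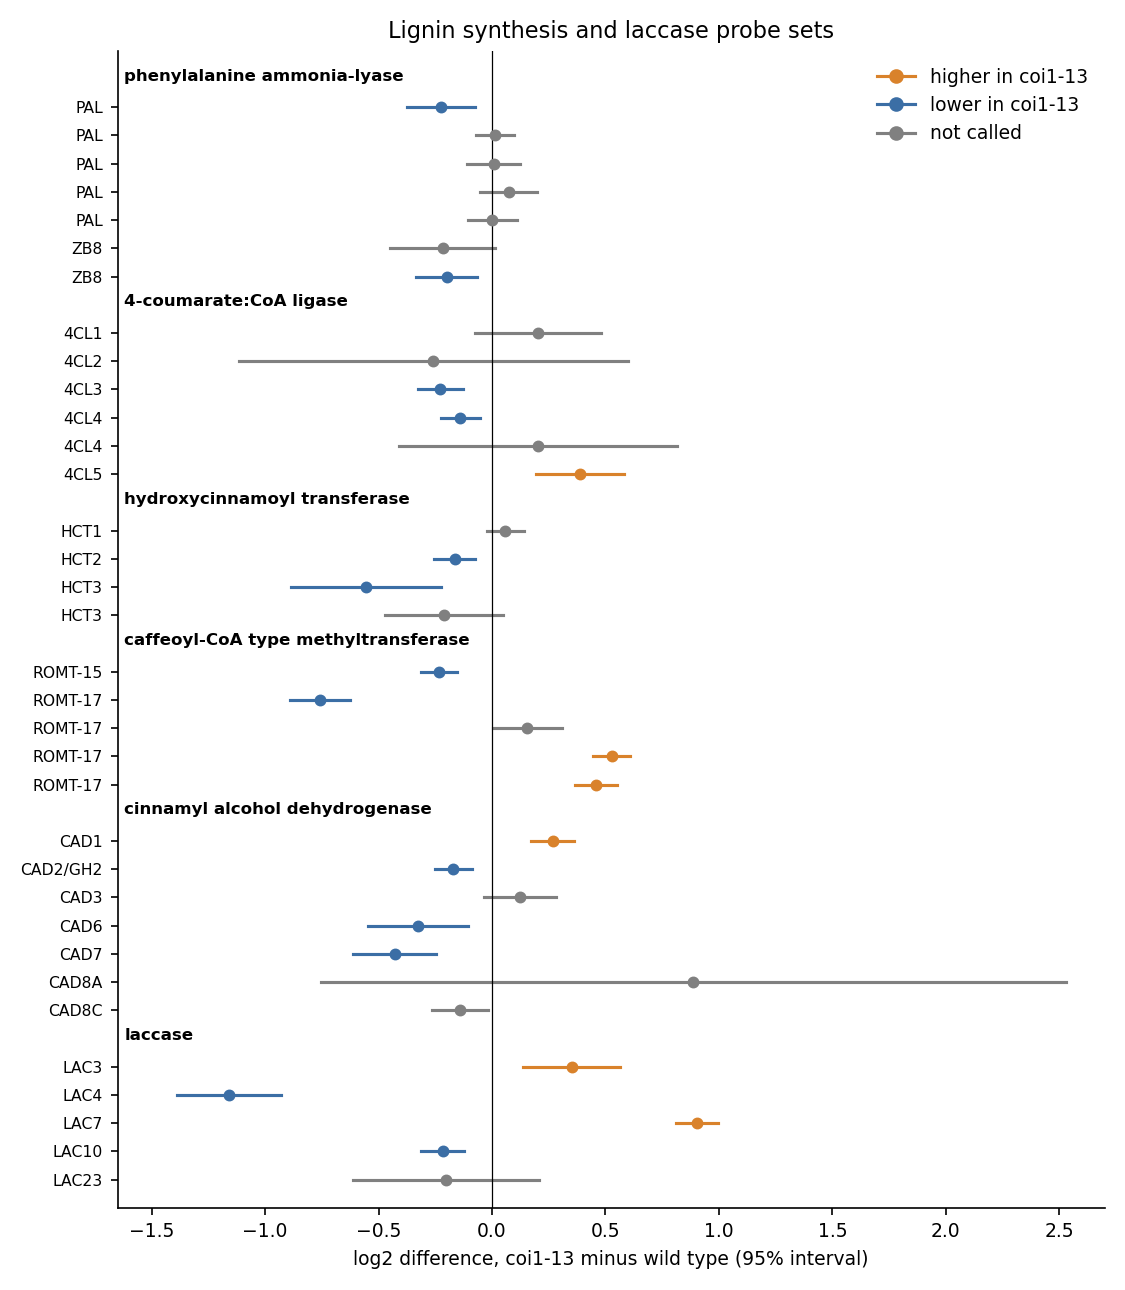
Log2 difference, coi1-13 minus wild type, with its 95% interval (horizontal axis) for the 29 tested lignin synthesis probe sets, ordered by enzyme, and for the tested laccases, with orange for higher, blue for lower and grey for not called. The 3 called probe sets of ROMT-17 lie on both sides of 0, and LAC4 and LAC7 lie farther out than any called synthesis probe set.

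The subunits CESA4, CESA7 and CESA9 form the cellulose synthase of secondary walls, and BC1 is a COBRA-like protein whose loss makes the culm brittle. All 5 probe sets of these 4 genes fell: CESA4 by 0.30 and 0.35, CESA7 by 0.43, CESA9 by 0.37 and BC1 by 0.55 on the log2 scale (limma, adjusted p from 2.24e-05 to 0.000242), where 19.4% of all tested probe sets were called lower. A sixth probe set of that list rose by 0.40, but it reads bHLH081, a transcription factor gene that shares the symbol BC1. The summed signal of all 6 lay between 30369 and 31633 in wild type, and between 24064 and 25180 in coi1-13. In bulk tissue, fewer lignifying cells and less RNA per cell cannot be told apart.

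The other wall lists matched few genes, and their counts stand beside 16.5% of all tested probe sets called higher and 19.4% called lower. Of 3 probe sets for class III peroxidases, PRX74 fell by 0.33 (limma, adjusted p = 5.93e-05), while 2 probe sets of PRX112 disagreed, with a dim one that rose by 1.29 (adjusted p = 0.0299) and a brighter one that did not pass. The list of secondary wall transcription factors matched 2 genes with 5 probe sets, of which 4 rose and none fell; the 4 calls therefore rest on 2 genes. These were NAC5, also named NAC071, with 3 probe sets that rose by 0.76 to 1.47, and MYB30, also named MYBS3, with 1 of 2 that rose by 0.42. These symbols were matched through synonyms and may not stand for the wall regulators the list was meant to hold. Of 9 tested probe sets for copper transporters and copper proteins, 3 rose, 2 fell and 4 did not pass, with the superoxide dismutase genes SODCC1 at -0.21 and SODCC2 at 0.23 and the transporter gene COPT1 at -0.40 (adjusted p = 0.000502, 0.000521 and 0.00325).

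Markers of other tissues differed between the same arrays, on which 16.5% of all tested probe sets were called higher and 19.4% lower. Of 14 anther and panicle marker probe sets 12 fell, 1 rose and 1 did not pass, with none at 0 in either group, and their summed signal lay between 74423 and 76370 in wild type, and between 60278 and 63533 in coi1-13. CYP703A3, C4 and EAT1, genes of the anther wall, had log2 differences of -3.04, -0.91 and -1.19. The bright anther genes RTS and C6 differed by only -0.11 each (limma, adjusted p = 0.0831 and 0.0474). Of 16 tested leaf marker probe sets 7 rose, 3 fell and 6 did not pass. The summed signal of the 17 measured was 95555 to 99250 in wild type and 109674 to 113443 in coi1-13. LIR1 and PSAH rose by 0.56 and 0.51 and an RBCS probe set by 0.43. The 3 that fell read GLO1, RCA and CAB2R, at -0.28, -0.22 and -0.18, while another GLO1 probe set rose by 0.80. Of 6 stem marker probe sets 2 rose, 3 fell and 1 did not pass. Among them were CYP714D1, which deactivates gibberellin, at a log2 difference of -2.80, OSH71 at 0.51 and an OSH1 probe set at -0.21. CYP714D1 exceeded the negative controls on only 1 of 3 coi1-13 arrays, so the size of its fall is uncertain. The summed signals of the 6 were 8234 to 8823 in wild type and 7570 to 7696 in coi1-13. The part of these shifts in the laccase differences was not tested.

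The genes most like LAC7 over the 6 arrays, among 2673 probe sets of named genes above the negative controls on every array, were CIPK23, NAC068, CIPK1, OsCASPL2B1 and MT1B, each with Pearson's r of 0.999. They rose by 0.37, 0.52, 0.99, 0.95 and 1.43 on the log2 scale. The 6 points form 2 groups, so these correlations mainly record a group difference with little spread, and they are a description only.

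**Figure D5:**
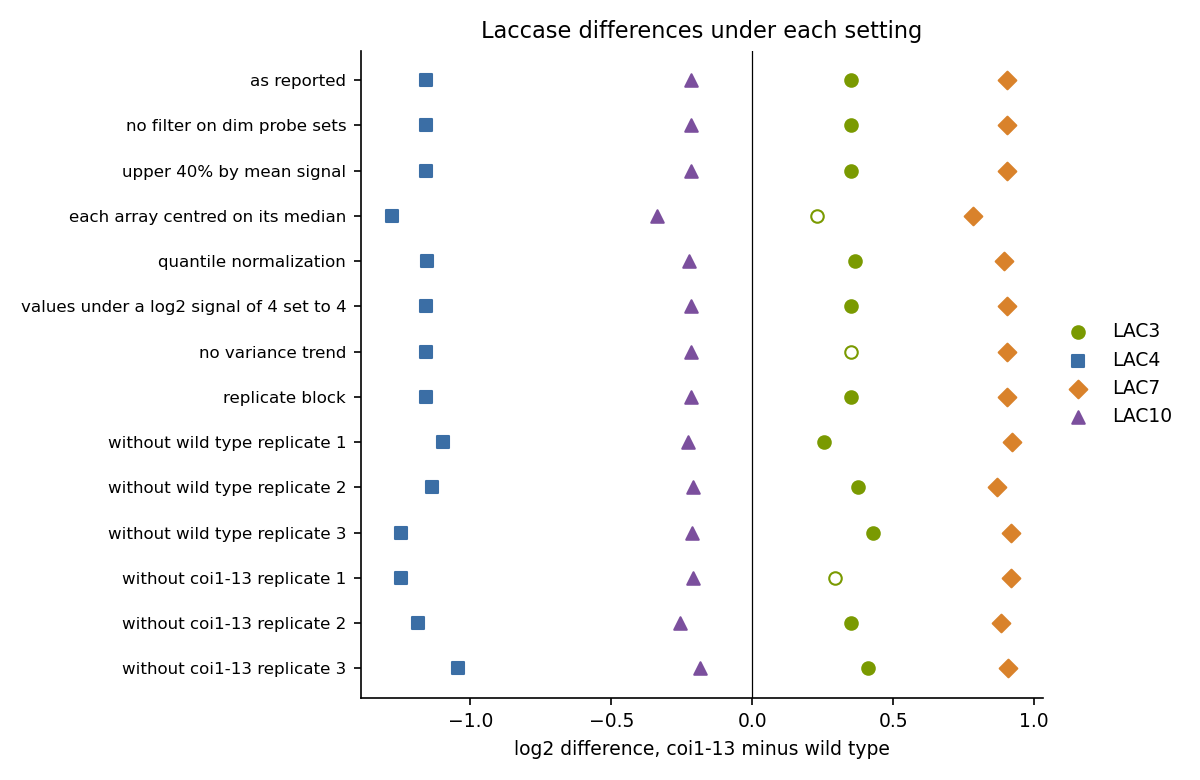
Log2 difference, coi1-13 minus wild type (horizontal axis), of each laccase under the reported setting and 13 alternatives (vertical axis); filled symbols passed an adjusted p of 0.05 and open ones did not. No laccase changes sign, and the 3 open symbols all belong to LAC3.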

How the data were processed

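Biotin-labelled RNA of 3 wild type and 3 coi1-13 samples was hybridised to 6 arrays, per the labels. The authors deposited log2 signals for 57381 probe sets, with GCOS 1.4 named in the submitters' processing notes and nothing further stated. Their scale was read off the numbers themselves: as powers of 2, the mean after trimming 2% at each end was 500.07 on every array. Depth does not apply to arrays, and their number limits the precision.

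Genes were named through GEO's platform annotation and the synonyms of a RefSeq gene table (ASM3414082v1), used for names and gene order only: of 57258 non-control probe sets, 22436 had 1 gene, 95 several and 34727 none listed. No sequence of the genes or probes was used here.

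The test of coi1-13 against wild type used limma 3.58.1 under R 4.3.3 (a linear model, then eBayes with trend) over the 60% of probe sets with the highest mean signal (at least 4.37), with Benjamini-Hochberg adjustment over all of them. Intervals are limma's at 95%. Not above the negative controls means under the highest of 33 on that array. Replicate numbers are not stated to mark a shared batch, so the main test did not pair the samples by them. Deviations of same-numbered arrays correlated at -0.003 to 0.001, which does not settle whether they shared a batch. The members and lists were chosen with earlier results of these data known. Named were all laccase probe sets and the 5 most like LAC7. From the synthesis and peroxidase lists, up to 6 called ones with the smallest p were named, and up to 3 from the others. Genes added after their values were seen were PAL, ZB8, 4CL3, 4CL4, 4CL5, HCT genes, CAD2, CAD6, CESA7, COI genes, RTS, C6, GLO1, RCA and CAB2R. Those shown beside a disagreeing probe set were also added then. The test was tried on simulated data.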

Additional observations from a re-analysis of the deposited data

How the results depend on the processing

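Of the alternatives tried, LAC4, LAC7 and LAC10 kept their direction and their call in all 13, with adjusted p-values of at most 0.0037, 0.000551 and 0.0398 (limma). LAC3 kept its direction in all 13 and its call in 10; it lost the call at 0.23 under median centring (adjusted p = 0.12), at 0.35 without the variance trend (adjusted p = 0.0777) and at 0.29 without coi1-13 replicate 1 (adjusted p = 0.0622), and the cause was not tested. Under both the centring and the lack of a trend the laccases called higher numbered 1. With 1 array left out, the log2 differences ran from 0.25 to 0.43 for LAC3, -1.25 to -1.04 for LAC4, 0.87 to 0.92 for LAC7 and -0.26 to -0.19 for LAC10, the laccases called higher from 1 to 2 and lower from 2 to 2, and the lignin synthesis probe sets called higher from 4 to 5 and lower from 7 to 11. Without the variance trend 4 lignin synthesis probe sets were lower. Requiring a change of at least 2-fold as well can only remove calls and left 0 laccases higher and 1 lower, 0 lignin synthesis probe sets higher and 0 lower, and 1188 of all tested probe sets higher and 686 lower. Median centring moved the median log2 difference of all tested probe sets from -0.01 to -0.13, with 3721 called higher (5679 as reported) and 9522 lower (6668 as reported), so the higher share of calls went from 46.0% to 28.1%; lignin synthesis probe sets were then 3 higher and 14 lower. With the replicate number as a block, the laccase calls were 2 higher and 2 lower and the lignin synthesis calls 4 higher and 13 lower, so it changed no laccase call; over all tested probe sets it gave 5481 higher and 6336 lower. With 3 arrays a group and 1 probe set a gene, no second probe set checks any laccase, and reading of related laccase transcripts by the same probes was not tested.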

Other observations

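LAC3, LAC4 and LAC7 lie on chromosome 1 with 110 genes between LAC3 and LAC4 and 52 between LAC4 and LAC7 in the gene table, and they did not move together. The nearest measured genes were looked at after the laccase values were seen, as the 5 on each side with a tested probe set. Around LAC4, which fell by 1.16, 3 of 11 probe sets rose, 2 fell and 6 did not pass, with log2 differences from -0.26 to 1.53, so none of these neighbours fell as far. Around LAC7, 6 of 12 rose and 3 fell (-0.84 to 1.22), and around LAC3 3 of 12 rose and 3 fell (-0.57 to 1.87). Around LAC10, 4 of 10 rose and 1 fell (-0.33 to 0.66). Over all tested probe sets 16.5% were called higher and 19.4% lower. These counts are of probe sets, and some neighbour genes had several. Near LAC7, LOC4324799 gave rises of 1.22 and 1.14 and LOC4324806 of 0.57 and 0.86.

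The named genes most like LAC4 over the 6 arrays, listed after its values were seen, were ARP3, RPS4, NCL1, GST-I and GEN2, with Pearson's r from 0.995 to 0.996. They fell by 0.28, 0.23, 0.46, 0.47 and 0.53 on the log2 scale, and none of these fell as far as LAC4.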
